A study of Rattus norvegicus with 4 samples.

Results

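The nerve sheath tumour suppressor genes are a set of 9 genes, named Nf1, Nf2, Lztr1, Smarcb1, Suz12, Eed, Prkar1a, Tsc1 and Tsc2, that were taken by symbol from the 30708 genes listed in each file. Of the 9 symbols, 8 had a value and Suz12 was not analysed here. The measurement was RNA-Seq of polyadenylated RNA from S16 cells, an immortalized line of rat Schwann cells, the glia that wrap and myelinate peripheral axons. The cells were unmodified and grown in the same medium with glutamine, and the groups were a population at passage 9, from which the study made its mutant lines, and a population at passage 39. Each population gave 2 libraries that the labels call technical replicates, so the data hold 4 libraries, 1 population per passage and 1 cell line, and no test between passages was possible.

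These genes hold back growth in the Schwann cell lineage by several routes. Neurofibromin, the product of Nf1, switches off Ras proteins, and its loss gives the neurofibromas and malignant nerve sheath tumours of neurofibromatosis type 1. Merlin, the product of Nf2, links the membrane to actin and to Hippo signalling and is lost in schwannomas. Lztr1 directs a cullin ubiquitin ligase to Ras proteins and Smarcb1 is a core subunit of the SWI/SNF chromatin remodeller, and germline changes in either predispose to schwannomatosis. Suz12 and Eed are subunits of the Polycomb repressive complex PRC2, which methylates histone H3 and is often lost in malignant nerve sheath tumours. Prkar1a encodes a regulatory subunit of protein kinase A, and its loss is linked to melanotic schwannoma. Tsc1 and Tsc2 encode hamartin and tuberin, which together restrain the kinase complex mTORC1 through the small GTPase Rheb.

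The promoters below are shown because Nf1 and Nf2 had the lowest and the highest ratio of RPKM between the libraries labelled as technical replicates of a population, and because Lztr1 and Smarcb1 moved together. They are RefSeq sequences of the rat build GRCr8, which is not the build of the expression files, and cover 250 bases before and 50 bases after the annotated start, written 5′ to 3′ on the strand of the gene. All 9 symbols matched this promoter table. The windows are chr10:64804016-64804315 on the plus strand for Nf1, chr14:83934102-83934401 on the minus strand for Nf2, chr11:97007802-97008101 on the minus strand for Lztr1 and chr20:12740698-12740997 on the plus strand for Smarcb1. Capitals mark matches, on either strand, to 7 short motifs that are spelled out after the sequences.

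Nf1: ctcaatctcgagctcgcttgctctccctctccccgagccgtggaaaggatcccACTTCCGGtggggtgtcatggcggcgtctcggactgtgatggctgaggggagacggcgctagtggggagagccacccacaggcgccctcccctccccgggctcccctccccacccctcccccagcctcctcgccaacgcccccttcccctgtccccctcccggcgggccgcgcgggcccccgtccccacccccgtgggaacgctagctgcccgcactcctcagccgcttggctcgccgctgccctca
Nf2: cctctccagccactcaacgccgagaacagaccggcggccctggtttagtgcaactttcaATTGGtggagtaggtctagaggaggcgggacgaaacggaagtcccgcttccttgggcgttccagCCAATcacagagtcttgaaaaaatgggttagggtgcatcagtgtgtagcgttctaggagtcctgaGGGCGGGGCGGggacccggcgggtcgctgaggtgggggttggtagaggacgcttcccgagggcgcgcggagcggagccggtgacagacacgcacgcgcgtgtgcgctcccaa
Lztr1: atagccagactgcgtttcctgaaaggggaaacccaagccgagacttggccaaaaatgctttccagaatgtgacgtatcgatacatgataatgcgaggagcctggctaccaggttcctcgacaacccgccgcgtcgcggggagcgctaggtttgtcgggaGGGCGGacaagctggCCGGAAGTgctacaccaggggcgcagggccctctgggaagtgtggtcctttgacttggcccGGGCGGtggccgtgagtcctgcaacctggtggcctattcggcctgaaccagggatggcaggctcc
Smarcb1: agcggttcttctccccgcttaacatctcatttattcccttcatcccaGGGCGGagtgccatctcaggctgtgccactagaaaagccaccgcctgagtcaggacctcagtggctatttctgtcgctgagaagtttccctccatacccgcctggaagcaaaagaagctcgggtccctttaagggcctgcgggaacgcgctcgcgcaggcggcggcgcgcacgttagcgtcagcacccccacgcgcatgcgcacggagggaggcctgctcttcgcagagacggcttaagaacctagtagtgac

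The Nf1 window was 73.0% G and C, against a median of 51.7% over 33469 rat promoters of the same length, and held 26 CpG pairs against a median of 7. The windows of Nf2, Lztr1 and Smarcb1 held 27, 20 and 24 CpG pairs. The 7 motifs were searched on both strands. The ETS-type motif CCGGAAGT, present in 3.81% of all these promoters, matched 1 time in Nf1, where it lies on the minus strand, and 1 time in Lztr1. The GC box GGGCGG, present in 33.1%, matched 2 times in Nf2, where the matches share 1 base, 2 times in Lztr1 and 1 time in Smarcb1. CCAAT, present in 37.5%, matched 2 times in Nf2. The TATA box TATAAA, present in 14.2%, the cyclic AMP element TGACGTCA, present in 1.83%, and the SOX-type motifs ACAAAG and ACAATG, present in 18.8% and 13.2%, had no match in these 4 windows. These matches are a description of letters, and no binding was measured.

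The authors deposited 1 value per gene and library in RPKM, the reads of a gene divided by its length in kilobases and by the library total in units of 1000000 reads. These values are ratios of whole numbers, from which the library totals, 34.2 to 41.4 M reads (1 M is 1000000), and the reads of each gene were worked out. Each total is above the number of reads per cell line that the paper's methods give for pooled replicates. Why they differ was not tested. The 95% intervals given with single libraries are exact Clopper-Pearson intervals that cover counting error only. Of the Schwann cell markers, 10 of 10 had a mean of at least 1 RPKM, and Sox10 lay between 170.7 and 183.0 RPKM. Their summed level was 4699 and 4696 RPKM in the first and 3847 and 3797 RPKM in the second technical replicates of passages 9 and 39. The melanocyte gene Tyr, the neuronal gene Syt1 and the leukocyte genes Ptprc and Itgam were listed at 0 in every library, and 2 of 5 fibroblast, 2 of 5 neuronal, 1 of 5 melanocyte and 1 of 5 macrophage markers reached 1 RPKM. The summed fibroblast markers, nearly all of it Col1a1, were at 3349 and 3364 RPKM in the first and 3883 and 3778 RPKM in the second technical replicates, while Dcn, Lum and Col1a2 stayed under 1 RPKM. These sums moved with the technical replicate number, as the results below do, and their part in those results was not tested. The libraries did not pair as labelled. A chi-square of the reads of the 8 members, for which counting noise alone gives a mean of 1, averaged 140.3 between the labelled technical replicates of passage 9 and 135.1 between those of passage 39, but 0.778 between the first and 0.428 between the second technical replicates of the different passages. Between labelled technical replicates, single members ranged from 4.50 to 871.8 at passage 9 and from 8.70 to 856.8 at passage 39. Nf1 was the highest at both passages, and the 2 member means between labelled technical replicates rest largely on it. Over all genes with at least 20 reads in the compared libraries together, the means for these 2 pairs were 64.9 and 62.2. For libraries that share a number the means over all genes were 1.12 and 1.36. Libraries that share a number were thus nearly, but not fully, within counting noise and were kept as separate libraries. The labels were used as given. Whether they are crossed cannot be told from these files, and if they are, the values called differences between technical replicate numbers would be differences between passages, and those called passage differences would be differences between technical replicates. The members are therefore compared both by passage and by technical replicate number, and what separates the numbered libraries was not tested.

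The members differed widely in level. The order was Prkar1a at 147.8 ± 0.520 RPKM, Smarcb1 at 25.6 ± 0.111 RPKM, Lztr1 at 20.8 ± 0.344 RPKM, Eed at 20.03 ± 0.0454 RPKM, Nf1 at 12.4 ± 0.0842 RPKM, Tsc2 at 8.87 ± 0.0206 RPKM, Tsc1 at 6.52 ± 0.0333 RPKM and Nf2 at 0.572 ± 0.0414 RPKM (SD, n = 2 populations for each). In rank over the 30708 listed genes, Prkar1a was at 309 and Nf2 at 11733. These SDs are small because each population mean holds a first and a second technical replicate, and the libraries themselves spread further. By single libraries, neighbours in the order overlapped for Smarcb1 and Lztr1, for Lztr1 and Eed, and for Nf1 and Tsc2, while Prkar1a, Tsc1 and Nf2 overlapped with no neighbour. Of the 8 members, 7 had a mean of at least 1 RPKM, the minimum used for counts over genes, and Nf2 did not.

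**Figure D1:**
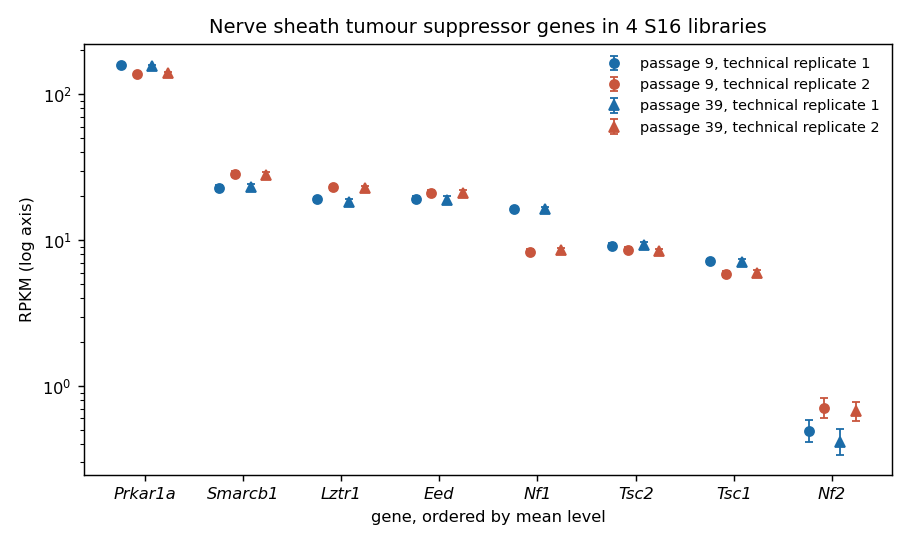
RPKM (log axis) of the 8 analysed genes in each of the 4 libraries, ordered by mean level, with circles for passage 9, triangles for passage 39, blue for technical replicate 1 and red for technical replicate 2. Bars are 95% counting intervals of single libraries. Nf1 lay near 16.4 RPKM in both blue libraries and at 8.33 and 8.55 RPKM in both red ones.

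Between the libraries labelled passage 9 and those labelled passage 39, compared within a technical replicate number, no member moved by more than its counting error. This reading rests on the labels, which may be crossed. The population means of Nf1 were 12.4 and 12.5 RPKM, those of Tsc1 6.49 and 6.54 RPKM, and those of Prkar1a 148.2 and 147.4 RPKM. The ratio of passage 39 to passage 9 lay between 0.977 for Lztr1 and 1.01 for Nf1 in 7 members, and was 0.903 for Nf2, the member with the fewest reads. Within each technical replicate number, the exact 95% interval of this ratio held 1 in 16 of 16 cases. For Nf1 the intervals were 0.965 to 1.04 for the first and 0.973 to 1.08 for the second technical replicates. For Nf2 they were 0.641 to 1.10 and 0.763 to 1.17, which are wider. Of the 7 members tested, 0 differed by a factor of 2 or more on log2(RPKM + 1), beside 0.00907% of 11025 genes, and 0 had libraries that did not overlap between passages, beside 6.21%. For 0.444% of genes the ratio interval lay on the same side of 1 for both numbers, and 0 of the 7 members were among them.

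The same genes differed between libraries with different technical replicate numbers. All 8 members had first and second technical replicates that did not overlap, and all 16 ratios of second to first within a passage had an interval that left out 1. This was the common state of genes in these libraries, since the numbered libraries did not overlap for 87.7% of the 11025 genes and the interval lay on the same side of 1 at both passages for 63.1%. In direction the members split evenly, with Nf1, Tsc1, Prkar1a and Tsc2 lower and Nf2, Lztr1, Smarcb1 and Eed higher in the second technical replicates. A gene is called lower or higher here where its second technical replicate differed from the first by at least 0.32 on the log2(RPKM + 1) scale, in the same direction at both passages.

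**Figure D2:**
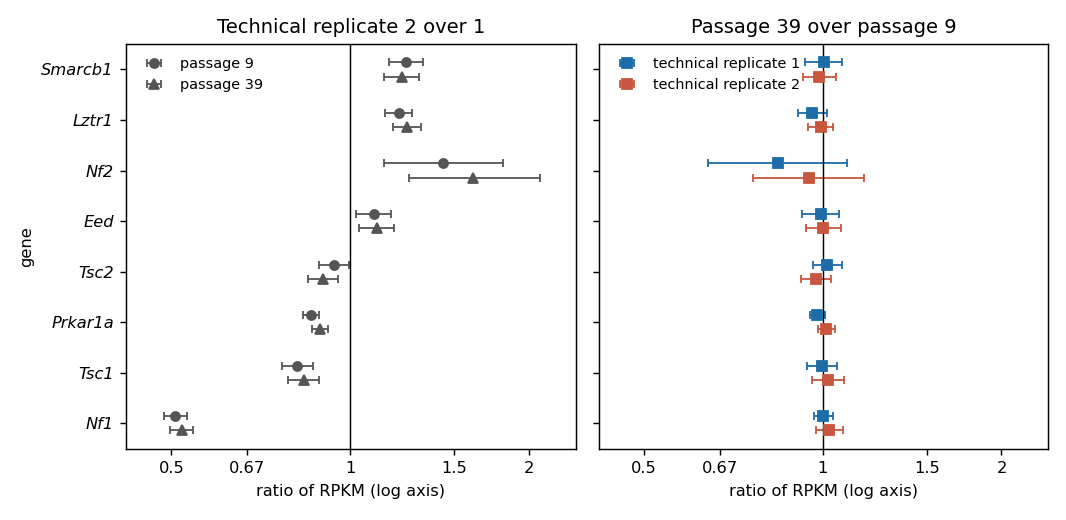
Ratio of RPKM (log axis) for each gene, on the left of technical replicate 2 to 1 at each passage and on the right of passage 39 to passage 9 for each technical replicate number, with exact 95% counting intervals. On the left Nf1 lies at 0.508 and 0.520 and on the right all 16 intervals cross 1.

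Nf1 had the largest difference among the 8 members, both as a ratio of RPKM and on the log2(RPKM + 1) scale. It was at 16.4 RPKM in the first (6077 reads, interval 15.99 to 16.8) and at 8.33 RPKM in the second technical replicate (2618 reads, interval 8.02 to 8.66) of passage 9. At passage 39 it was at 16.4 RPKM (5037 reads, interval 15.98 to 16.9) and at 8.55 RPKM (3143 reads, interval 8.25 to 8.85). Both first technical replicates thus stood well above both second ones, whatever the passage. The ratio of second to first was 0.508 (interval 0.485 to 0.532) at passage 9 and 0.520 (interval 0.497 to 0.544) at passage 39. On the log2(RPKM + 1) scale the difference was -0.88, with an SD of 0.021 over the 2 passages, against a median of 0.10 over all 11025 genes, and it ranked 125 among them from the lowest. Nf1 was the 1 member of 7 called lower, beside 8.56% of all genes, and it missed the 2-fold threshold, which 1.1% of genes and 0 of the 7 members passed.

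Tsc1 and Tsc2, whose proteins act in a single complex, were also lower in the second technical replicates, by less. Tsc1 was at 7.15 and 5.83 RPKM in the first and second technical replicates of passage 9 and at 7.13 and 5.96 RPKM in those of passage 39. The ratios were 0.816 (interval 0.768 to 0.866) and 0.835 (interval 0.787 to 0.887). Tsc2 went from 9.16 to 8.61 RPKM at passage 9 and from 9.32 to 8.39 RPKM at passage 39, with ratios of 0.940 (interval 0.887 to 0.996) and 0.900 (interval 0.849 to 0.953). The tuberin gene was above the hamartin gene in every library, by 1.28-fold and 1.48-fold at passage 9 and 1.31-fold and 1.41-fold at passage 39.

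Prkar1a, the most abundant member, went from 159.3 to 137.0 RPKM at passage 9 and from 155.9 to 139.0 RPKM at passage 39. Its ratios of 0.860 (interval 0.834 to 0.888) and 0.892 (interval 0.864 to 0.920) rested on 6896 to 9452 reads per library and were the most tightly measured of the set. Neither Tsc1, Tsc2 nor Prkar1a was called.

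Lztr1 and Smarcb1 were higher in the second technical replicates by similar factors. Lztr1 went from 19.0 to 23.0 RPKM at passage 9 and from 18.3 to 22.8 RPKM at passage 39, with ratios of 1.21 (interval 1.15 to 1.27) and 1.248 (interval 1.18 to 1.32). Smarcb1 went from 22.9 to 28.5 RPKM at passage 9 and from 23.0 to 28.1 RPKM at passage 39, with ratios of 1.24 (interval 1.16 to 1.33) and 1.22 (interval 1.14 to 1.31). The ratio of Smarcb1 to Lztr1 accordingly stayed between 1.20 and 1.26 in the 4 libraries, while that of Lztr1 to Nf1 went from 1.16 and 1.11 in the first to 2.76 and 2.67 in the second technical replicates. With differences of 0.28 and 0.29 both fell short of the call, so 0 of the 7 members were called higher, beside 15.2% of all genes. Nf2, with RPKM ratios of 1.44 and 1.62, is not among these 7, as its mean was under 1 RPKM.

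Eed moved least among the members that were higher, from 19.1 to 21.0 RPKM at passage 9 and from 19.0 to 21.0 RPKM at passage 39. Its log2 difference of 0.13 was close to the median of all genes, 0.10, and after rescaling to a common sum or relative to genes of similar length it was slightly below 0.

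Nf2 was the only member under 1 RPKM. It was at 0.494 RPKM in the first (138 reads, interval 0.415 to 0.583) and 0.709 RPKM in the second technical replicate (168 reads, interval 0.606 to 0.824) of passage 9, and at 0.415 RPKM (96 reads, interval 0.336 to 0.507) and 0.6702 RPKM (186 reads, interval 0.577 to 0.774) at passage 39. Both second technical replicates were above both first ones, with ratios of 1.44 (interval 1.14 to 1.81) and 1.62 (interval 1.26 to 2.09). These are the highest RPKM ratios of the set and also the least precise. Because a pseudocount of 1 RPKM exceeds these values, the difference shrank to 0.22 on the log2(RPKM + 1) scale and was 0.51 with a pseudocount of 0.1 RPKM. Per kilobase, Nf1 was 33.2-fold and 39.6-fold above Nf2 in the first technical replicates and 11.8-fold and 12.8-fold above it in the second. Whether this low value describes the transcript or the gene model that was counted was not tested. In such bulk libraries, fewer cells with a transcript and less of it per cell cannot be told apart.

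Gene length moved with the difference between numbered libraries. Across 11024 genes with a recovered length, Spearman's rho between length and the difference was -0.42, as a description over genes that share 4 libraries. Long genes were lower and short genes higher in the second technical replicates. The median difference was 0.28 in the shortest and -0.22 in the longest of 20 length bins. Recovered lengths of the members ran from 1434 bp for Prkar1a to 8952 bp for Nf1 and 9045 bp for Tsc1. Relative to the median of its bin, Tsc1 was at -0.019, Tsc2 at -0.0056 and Eed at -0.016, so these 3 genes lay where genes of their length lay. Nf1 was still at -0.66 relative to its bin, and 12 of the 552 genes of that bin, Nf1 included, were as low. Prkar1a, a short gene in a bin with a median of 0.22, was at -0.41 relative to it, a larger distance than its unadjusted -0.19. Smarcb1 was at 0.10, Lztr1 at 0.23 and Nf2, whose recovered length was 6755 bp, at 0.32.

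**Figure D3:**
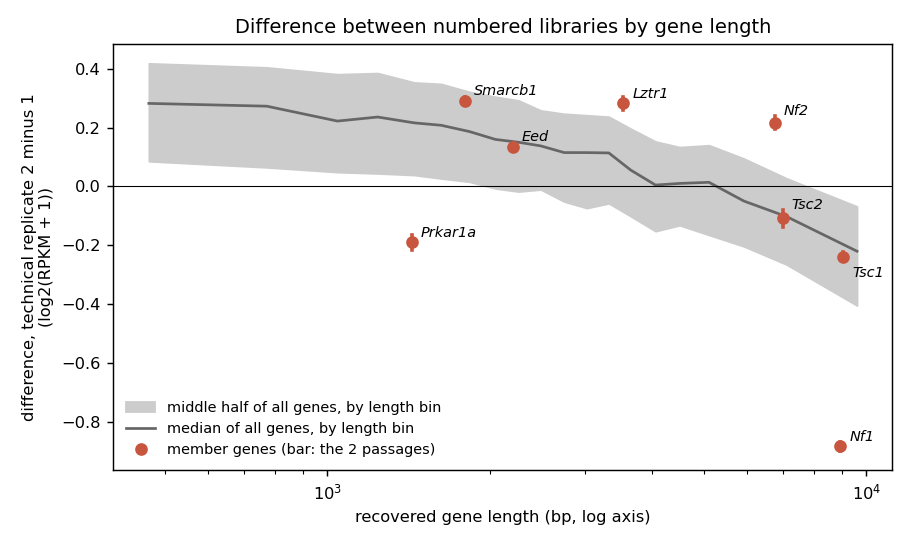
Difference between technical replicates 2 and 1 on the log2(RPKM + 1) scale against recovered gene length (bp, log axis), with the median and interquartile range of all genes in 20 length bins in grey and the 8 analysed genes in red, where a bar joins the values of the 2 passages. Nf1 lies at -0.88 where the median of its bin is -0.22, Prkar1a at -0.19 where it is 0.22, and Tsc1 and Tsc2 lie close to the grey line.

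The Ras regulators and kinases around Nf1 and Lztr1 were described with a list of 24 genes, of which 24 had a mean of at least 1 RPKM. In the second technical replicates 3 of them were called lower and 6 higher, beside 8.56% and 15.2% of all genes. The median difference of the list was 0.029 against 0.10 over all genes. Among the lower genes were the Ras GTPase-activating genes Rasal2, with ratios of 0.508 and 0.514, and Rasa2, with 0.725 and 0.711. Rasal2 thus had a ratio close to that of Nf1. Rasa1, another gene of this kind, had ratios of 0.853 and 0.886 and was not called. Mras was furthest up in the list, from 1.04 to 3.94 RPKM at passage 9 and from 0.717 to 3.99 RPKM at passage 39, and Rras2 was higher with ratios of 1.55 and 1.58. The remaining higher genes were Hras, Rras, Map2k1 and Map2k2. The most abundant genes of the list, the kinase gene Mapk3 at 135.8 ± 0.261 RPKM and the ligase subunit gene Rbx1 at 114.6 ± 2.54 RPKM, were not called, and neither was Cul3, the partner of Lztr1, at 42.7 ± 0.752 RPKM (SD, n = 2 populations). The lowest was Spred3, a recruiter of neurofibromin, at 1.86 RPKM.

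Merlin belongs to the ezrin, radixin and moesin family, and its relatives were abundant where Nf2 was low. Moesin, Msn, was the highest of 17 listed genes at 281.6 ± 1.98 RPKM, and Rdx and Ezr, named here for their kinship with merlin after their values were seen, were at 42.8 and 32.1 RPKM. Ddb1, a subunit of the ligase that merlin binds in the nucleus, was at 149.0 RPKM. Of 16 genes of this list with at least 1 RPKM, 0 were called lower and 1 higher, beside 8.56% and 15.2% of all genes. The median difference was 0.070. The higher gene was Wwc1, which encodes the Hippo activator KIBRA, with 1.76 against 4.40 RPKM at passage 9 and 1.94 against 4.58 RPKM at passage 39. The kinase gene Pak2 was listed between 0 and 0.0169 RPKM, while its paralog Pak1, named for comparison, was at 35.2 RPKM. The value of Pak2 rested on 0 or 1 reads per library. Whether it describes the transcript or the gene model that was counted was not tested.

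Of 22 analysed SWI/SNF genes beside Smarcb1, 20 had at least 1 RPKM, and their median difference between numbered libraries was 0.12. Smarcd3 and Bcl7c were called higher, with ratios of 1.53 and 1.36 for Smarcd3 and 1.40 and 1.34 for Bcl7c. No gene of the list was called lower, and over all genes 15.2% were called higher and 8.56% lower. Brd7 was the highest at 56.6 RPKM and Ss18 followed at 37.7 RPKM. The neuronal subunit gene Actl6b was listed at 0 in all libraries and Dpf3 was at 0.0277 RPKM.

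Among 9 other PRC2 genes the median difference was -0.0079. Phf1, an accessory subunit, was higher with ratios of 1.43 at both passages, and 0 genes were lower. Over all genes these shares were 15.2% and 8.56%. The catalytic subunit gene Ezh2 was at 57.1 ± 0.965 RPKM, which was 2.55-fold to 3.20-fold above Eed in the 4 libraries, while its paralog Ezh1, named beside it after the values were seen, was at 3.52 RPKM. Rbbp7, a histone-binding subunit shared with other complexes, was the highest at 244.7 RPKM and its close paralog Rbbp4 the lowest at 1.53 RPKM. Only uniquely mapped reads were kept by the authors, so reads shared by close paralogs or their copies are in neither value.

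The genes of protein kinase A had a median difference of 0.079 over the 6 of 8 with at least 1 RPKM. Prkar1a was by far the leading regulatory subunit, 5.77-fold to 7.39-fold above Prkar2a in the 4 libraries, and above the catalytic subunit gene Prkaca, which was at 64.1 RPKM, by 2.08-fold to 2.51-fold. Pkia, which encodes an inhibitor of the kinase, was lower, from 4.02 to 1.21 RPKM at passage 9 and from 3.98 to 1.33 RPKM at passage 39, and its difference of -1.14 passed the 2-fold threshold. The regulatory subunit gene Prkar2b and the inhibitor gene Pkig were higher, with ratios of 1.44 and 1.39 for Prkar2b and 1.37 and 1.31 for Pkig. Of the 6 genes, 1 was thus called lower and 2 higher, beside 8.56% and 15.2% of all genes. The 2-fold threshold was passed by 1 of the 6, beside 1.1% of all genes. The lowest was Pkib at 0.0889 RPKM.

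Around Tsc1 and Tsc2, 20 of 20 genes had at least 1 RPKM and the median difference was -0.033. Of these, 2 genes were lower and 2 higher, beside 8.56% and 15.2% of all genes. Eif4ebp1, which encodes a repressor of translation that mTORC1 phosphorylates, was the highest and was also higher in the second technical replicates, from 139.9 to 244.0 RPKM at passage 9 and from 134.0 to 233.5 RPKM at passage 39. Akt1s1, for an inhibitory subunit of mTORC1, had ratios of 1.42 and 1.37. Sesn3, for a sestrin, was lower with ratios of 0.582 and 0.601, and so was Rictor, the defining subunit of mTORC2, with 0.707 and 0.750. Deptor, an mTOR inhibitor, was at 131.6 RPKM, and the smallest subunit gene of the TSC complex, Tbc1d7, was the lowest of the list at 2.83 RPKM, below Tsc1 in every library by 2.00-fold to 2.44-fold.

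**Figure D4:**
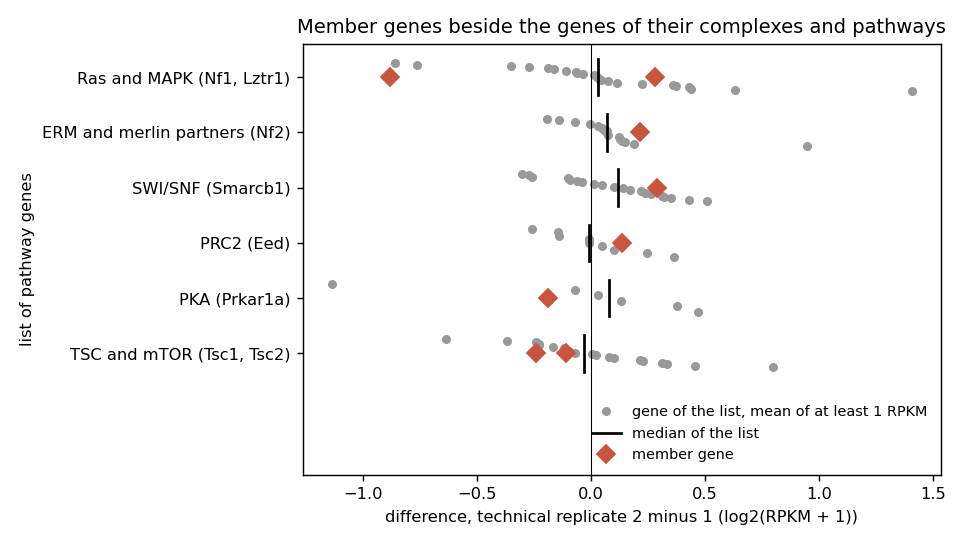
Difference between technical replicates 2 and 1 on the log2(RPKM + 1) scale for the genes of 6 lists with a mean of at least 1 RPKM (grey points), the median of each list (black bars) and the members (red diamonds). The list medians lie between -0.033 and 0.12, while Nf1 lies at -0.88 beside Rasal2 at -0.86.

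By passage, 0 genes of these 6 lists differed 2-fold, beside 0.00907% of all genes, and the differences ran from -0.095 to 0.18. The genes of the whole table most like Nf1 over the 4 libraries, by the root mean square difference of values centred on their own mean on the log2(RPKM + 1) scale, were Plxna4a with 0.013, Tenm1 with 0.014 and Igsf9b with 0.016. Plxna4a, a semaphorin receptor gene, went from 11.8 to 5.83 RPKM at passage 9 and from 11.8 to 5.86 RPKM at passage 39. For Nf2 they were Usp40 with 0.0049, Stx4 with 0.0065 and Lysmd1 with 0.0065. With 4 libraries in 2 near-identical pairs, this likeness amounts to a similar difference between the numbers.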

How the data were processed

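The 4 S16 libraries were grouped by the passage in their labels, and the technical replicate number was read from their titles. According to the methods and the labels, the authors aligned single-end TruSeq reads to rn5 (Rnor_5.0) with STAR, kept reads with a unique position and used HTSeq, unstranded, to assign them to genes. The authors deposited RPKM values, named after RefSeq, while the methods name Ensembl. Versions and gene lengths are not given in the sources used here. Reads without strand cannot be told apart between overlapping genes.

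Library totals were recovered as the common divisor of the reciprocals of the RPKM values, and the reads of a gene from the smallest whole length that makes them whole in all libraries, within a relative tolerance of 1e-09. A factor common to all libraries of a gene can stay hidden, as RPKM keeps only the ratio of reads to length. The recovery was run on simulated data built from the recovered lengths and totals, which cannot show whether those lengths are right. Among genes of the length bins, recovered lengths went down to 5 bp. Differences are on the log2(RPKM + 1) scale, which understates low genes. Counts over genes took the 11025 whose mean over the libraries reached 1 RPKM. Ratio intervals are exact conditional binomial intervals at 95%. Python 3.11.15, numpy 2.4.6, pandas 2.3.3, scipy 1.17.1 and matplotlib 3.10.9 were used. No p-values were computed, since a passage is 1 population.

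Members and lists were chosen with earlier results of these data known. Named from each list were the 2 highest genes and the lowest above 0, those listed at 0, and up to 4 of the genes at least 0.32 apart (log2) between numbers in 1 direction at both passages, the largest first, with the 3 most similar genes for Nf1 and Nf2. Other genes were named after their values were seen. The lists held 2 SWI/SNF symbols and 1 interval symbol without a value, which were not analysed here. Some genes that this rule names are not reported here. The mutant and clonal libraries were not analysed here.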

Additional observations from a re-analysis of the deposited data

How the results depend on the processing

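Scaling changed the balance of all genes. As deposited, 944 genes were called lower and 1678 higher in the second technical replicates. After median-ratio scaling these were 1366 and 939, after rescaling to a common sum of 1000000 they were 1883 and 750, and with a correction for length 1251 and 559. Rescaling to a common sum moved the median of all genes by -0.13. The numbered difference of Nf1, -0.88, was -0.95 with a pseudocount of 0.1 RPKM, -0.97 after median-ratio scaling, -1.08 after rescaling to a common sum and -0.66 with the correction for length. The number of members 2-fold apart by technical replicate number, 0, was 1 after rescaling to a common sum. The number of members called, 1, was 2 both after that rescaling and with the length correction. The member called beside Nf1 was Tsc1, at -0.40, after the rescaling and Prkar1a, at -0.41, with the length correction. With a library left out the number called was 1, but the call then used only the passage that kept both libraries. Nf1 passes at each passage, so that count could not fall below 1. In 7 of the 8 members the direction between numbers was kept under all alternatives run. Eed was at 0.13 and changed sign under 2 of them, to -0.016 with the length correction.

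With the replicate number as a block, that is from differences within numbers, 0 members were 2-fold apart by passage, as without it. Leaving out 1 library gives the passages unequal mixes of numbers, and the passage difference of Nf1, 0.013, then ran from -0.49 to 0.53, with its sign changing in 2 of 4 cases. With 2 libraries per number, small differences in Nf2, at 96 to 186 reads, could not be resolved.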

Other observations

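Nf1 and Suz12 lie in the interval that is deleted in people with NF1 microdeletions, and 11 other genes of that interval were analysed. Of these, 6 had a mean of at least 1 RPKM, with Coprs at 32.4 RPKM and Utp6 at 24.8 RPKM as the highest. Crlf3 and Tefm were called higher in the second technical replicates, with ratios of 1.28 and 1.33 for Crlf3 and 1.51 and 1.33 for Tefm. No gene of the interval list was called lower, and over all genes 15.2% were called higher and 8.56% lower. The median difference was 0.12, against -0.88 for Nf1. Between the labelled passages 0 of the 6 differed 2-fold, beside 0.00907% of all genes. Their differences ran from -0.012 to 0.088 on the log2(RPKM + 1) scale. The genes that lie inside an intron of Nf1, named after their values were seen, were barely listed. Omg was at 0.0501 RPKM, Evi2b at 0.0546 RPKM and Evi2a at 0.446 RPKM, and the lowest of the interval was Adap2 at 0.0245 RPKM.

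Other genes that are lost in nerve sheath tumours were all above 1 RPKM, and 0 of 5 were called between the numbered libraries. Over all genes 8.56% were called lower and 15.2% higher. Between the labelled passages 0 of 5 differed 2-fold, beside 0.00907% of all genes, with differences from -0.091 to 0.0077. Cdkn2a, named after its values were seen, was at 32.6 RPKM and Cdkn2b was the lowest at 2.64 RPKM.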
